A study of Mus musculus with 26 samples.

Results

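Dividing progenitors of the mouse cerebral cortex at E15.5 (E, embryonic day) were examined in single-nucleus RNA-seq of 8 libraries. A nucleus was taken as dividing when the unique molecular identifiers (UMIs, 1 per captured RNA molecule) of Top2a, Mki67, Cenpf, Kif11, Kif15 and Knl1 summed to at least 3, among barcodes with at least 500 UMIs and 200 genes. By this rule 3559 of 43456 nuclei were dividing. Of these, 625 held at least 1 UMI of Eomes, the transcription factor that marks intermediate progenitors, and 2934 held none. The nuclei were chosen and split on these 7 genes. Their levels, and every comparison of dividing with other nuclei or of nuclei with and without Eomes, are therefore descriptions without a test, and tests are kept to comparisons of treatments and genotypes over libraries.

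The study asked whether microglia take part in the response of the fetal cortex to inflammation of the mother. Dams were injected at E12.5 with poly(I:C), which mimics viral double-stranded RNA and sets off maternal immune activation (MIA), or with saline, and the prospective S1 (somatosensory) cortex of male C57Bl/6N embryos was dissected at E15.5. The 4 groups were wild type after saline, wild type after MIA, Csf1r-null after saline and Csf1r-null after MIA, with 2 libraries each. Csf1r encodes the receptor that microglia need to develop, and embryos that lack it throughout the body lack microglia, so that the genotype also removes the receptor from any other cell that carries it. The paper names the wild type embryos as littermates of the Csf1r-null ones, so libraries of both genotypes can share a litter. The embryos came from a small number of dams and the sources do not tie libraries to dams, so the p-values below measure the spread between libraries only.

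In the embryonic cortex, apical progenitors (radial glia) line the ventricle and divide there, held in the progenitor state by Notch signaling through Hes1 and Hes5. Some of their daughters switch on Neurog2 and then Eomes, move to the subventricular zone and divide again as intermediate progenitors before they become neurons. Genes of DNA replication peak in S phase, and genes of the mitotic spindle, the kinetochore and the anaphase-promoting complex peak in G2 and mitosis.

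The dividing nuclei of a library summed to between 611435 and 1835453 UMIs, with medians of 1583 to 2726 UMIs per nucleus. The labels were checked first. Over all nuclei Csf1r gave between 11 and 23 UMIs in 3 of the libraries labelled wild type, but 1 UMI in the fourth, MIA 2. It gave between 1 and 4 UMIs in 3 of those labelled Csf1r-null, but 10 in saline 2. The sum of 12 microglial markers went the same way (137 UMIs in wild type MIA 2 and 248 in Csf1r-null saline 2). These 2 libraries therefore went against their labels, and values without them are given where they differ most. Across the 8 libraries 473 nuclei carried a barcode that another library also held, and no pair of libraries shared more than 14.

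The 6 genes of the rule all act in chromosome segregation or mark cycling cells. Top2a (ENSMUSG00000020914, mm10 chr11:98992943-99024189, minus strand) encodes DNA topoisomerase II alpha, which untangles sister chromatids, and was found in 74.8% of the dividing nuclei. Mki67 (chr7:135689784-135716361, minus strand) encodes the Ki-67 antigen of the mitotic chromosome surface and was found in 68.7%. Cenpf (chr1:189640606-189688086, minus strand), a kinetochore protein, was found in 59.1%. The mitotic kinesins Kif15 (chr9:122951046-123018733, plus strand) and Kif11 (chr19:37376403-37421859, plus strand) were found in 47.1% and 36.0%, and the kinetochore scaffold Knl1 (chr2:119047119-119105501, plus strand) in 44.5%. Top2a alone gave 35.9% of the UMIs on which the rule rested. Only 353 of the 3559 nuclei passed with UMIs of 1 gene, and 929 with UMIs of exactly 2 genes.

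Promoters are shown because the genes of the rule share a letter pattern that the rule did not use. The cell-cycle genes homology region (CHR, TTTGAA, read on either strand) and the CCAAT box (CCAAT, read on either strand) are elements known from promoters of genes of late cell cycle. In RefSeq promoters of GRCm38.p6, from 250 bases before to 50 after the start, TTTGAA stood in 6 of 6 genes of the rule and in 17.9% of all 32851 promoters. CCAAT stood in 4 of 6 and in 37.4% of all. Parts of 4 promoters are printed 5′ to 3′ on the strand of the gene, with both patterns (or their complements TTCAAA and ATTGG) in capitals.
Top2a, chr11:99024190-99024249: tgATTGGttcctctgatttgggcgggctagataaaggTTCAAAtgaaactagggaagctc
Kif11, chr19:37376322-37376381: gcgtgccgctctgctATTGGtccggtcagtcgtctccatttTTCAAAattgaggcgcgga
Mki67, chr7:135716470-135716529: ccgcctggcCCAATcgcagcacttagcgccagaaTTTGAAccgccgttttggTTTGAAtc
Ube2c, chr2:164769869-164769908: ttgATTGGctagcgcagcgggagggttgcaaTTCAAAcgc

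Ube2c, the ubiquitin-conjugating enzyme of the anaphase-promoting complex, is shown because its level differed between groups below. Among the wider lists, TTTGAA stood in 21 of the 29 G2 and mitosis genes with a promoter in the table (72.4%), in 3 of 28 S phase genes (10.7%) and in 2 of 25 proteasome genes (8%). CCAAT stood in 22 of the 29 G2 and mitosis genes (75.9%), 19 of 28 S phase genes (67.9%) and 10 of 25 proteasome genes (40%). It stood in 9 of 13 apical markers (69.2%) and 5 of 10 intermediate progenitor markers (50%), so it was not particular to the genes of the rule. The patterns describe the sequence and do not show that a factor bound there.

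The label was checked against markers that the rule did not read. A gate of at least 3 UMIs over 7 apical genes (Pax6, Sox2, Hes5, Slc1a3, Fabp7, Vim and Ptprz1) was passed by 2917 of the 3559 dividing nuclei (82.0%), against 38% of nuclei with 0 UMIs of the rule. A gate of projection neuron genes was passed by 245 dividing nuclei, a vascular gate by 21 and a microglial gate by 7. Deep-layer neurons do not divide. They were taken as nuclei with at least 8 UMIs of Bcl11b, Fezf2, Tle4, Tbr1 and Mapt and none of Pax6, Sox2 and Hes5. That choice itself kept out nuclei with RNA of these apical genes, so low values were partly fixed by it. Of these neurons 31 of 7471 (0.415%) reached 3 UMIs of the rule, at a median of 3457 UMIs per nucleus. Eomes was held by 1.31% of them, against 17.6% of the dividing nuclei at a median of 2215 UMIs. Among nuclei with at least 4 UMIs of the interneuron genes Gad1 and Gad2 the rule was met more often, by 31 of 509 (6.09%, and 4.94% of those thinned to 1000 UMIs) at a median of 3095 UMIs, and 3.14% held Eomes. Just outside the threshold, the 1131 nuclei with 2 UMIs passed the apical gate in 66.4% of cases. Just inside it, the 660 nuclei with 3 UMIs did so in 73.3%, the 434 with 4 in 80.4%, and the 2465 with 5 or more in 84.5%. By kind, 73.6% of the dividing nuclei with Eomes and 83.7% of those without passed the apical gate. It was passed without the projection neuron gate or the ventral gate described below by 2592 dividing nuclei (72.8%). No gate at all was passed by 491 (13.8%). Most of the dividing nuclei thus carried apical RNA at this low threshold, but not all did.

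A ventral forebrain gate (at least 3 UMIs of Dlx1, Dlx2, Dlx5, Dlx6os1, Gad1 and Gad2, genes of the interneuron lineage that the cortex itself does not produce) set 1 library apart. It was passed by 224 dividing nuclei, of which 200 lay in wild type saline 1, where they made up 33.7% of the dividing nuclei (exact 95% interval 29.9 to 37.7%). The other 7 libraries held between 1 and 7 each. Of the 224, 7 held Eomes. Among all nuclei of wild type saline 1 the gate was passed by 23.6%, against 2.92 to 5.23% elsewhere. Shares and the counts that moved most are given below with and without the ventral nuclei.

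**Figure D1:**
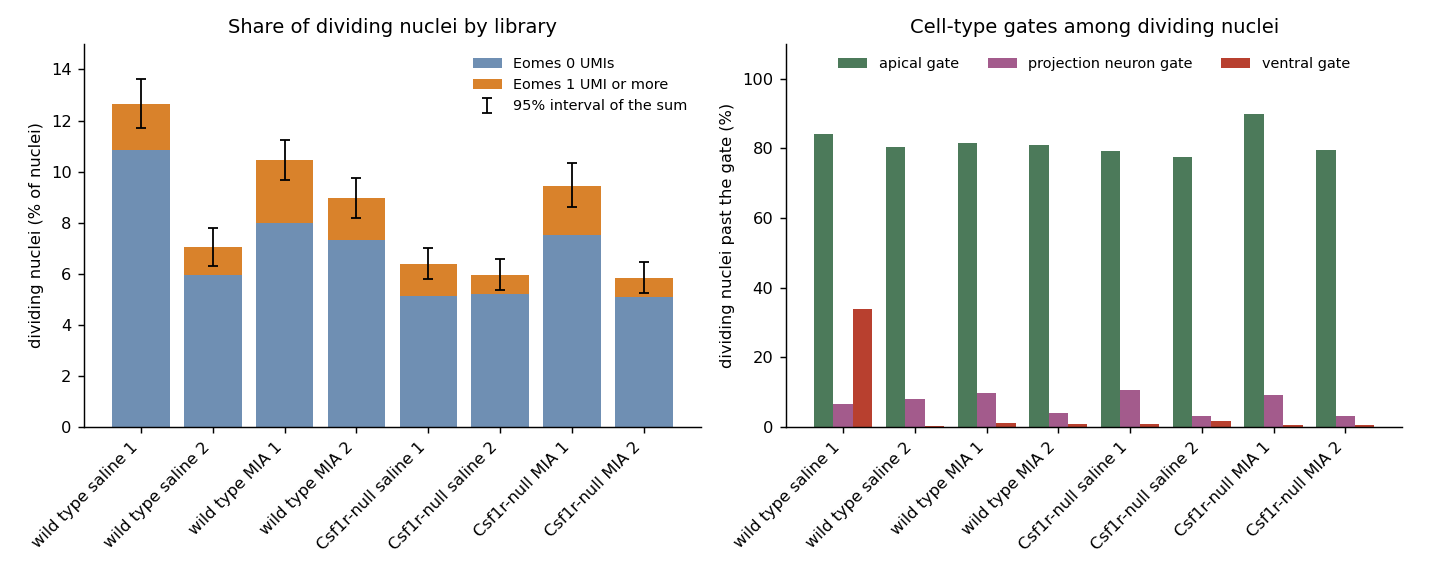
Left, dividing nuclei as a percentage of all nuclei of each library, split by Eomes (bars), with exact 95% intervals of the sum. Right, percentage of the dividing nuclei of each library past the apical, projection neuron and ventral gates. Wild type saline 1 had the highest share (12.6%) and is the one library with a tall ventral bar (33.7%).

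Compared with all other nuclei, the dividing nuclei had higher levels of genes of the cell cycle and of apical progenitors, and lower levels of neuronal genes. Levels are UMIs summed over nuclei and scaled by library total (CPM, counts per 1e6), and a log2 ratio is the median over 8 libraries with 0.5 UMI added. Of 5104 genes at 50 CPM or more in either class, 2210 were higher in 8 of 8 libraries (43.3%) and 1205 were lower in 8 of 8 (23.6%). Of 34 G2 and mitosis genes 30 reached 50 CPM and were higher in 8 of 8, with a median log2 ratio of 4.35. Of 34 S phase and replication genes 26 did so, with a median of 2.61. The rule fixed this direction, since the nuclei were chosen on mitosis genes and most such genes reached 50 CPM only in the dividing nuclei (Kif23 stood at 222 against 3.78 CPM). The genes with the highest ratios were Ankle1, a nuclease (6.87), Esco2, the acetyltransferase of sister chromatid cohesion (6.32), Neil3, a DNA glycosylase (6.08), and the mitotic kinesins Kif23 (5.84) and Kif4 (5.78).

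All 16 apical progenitor markers were higher in 8 of 8 libraries, with a median log2 ratio of 2.71. Hes1, the Notch effector, stood at 385 ± 108 CPM (SD, n = 8 libraries) in dividing nuclei and at 34.6 CPM in the others, a log2 ratio of 3.57. Pax6 stood at 846 against 113 CPM (2.94), and Notch1 at 209 against 24.9 CPM (3.25). Intermediate progenitor markers were closer, with 7 of 10 higher in 8 of 8 libraries and a median of 0.89. All 15 projection neuron markers were lower in 8 of 8, with a median of -1.65. Cdkn1c, an inhibitor of cyclin-dependent kinases, was lower in 8 of 8 libraries (27.3 against 83.4 CPM, -1.59), while the 31 proteasome genes stood near 0 (median 0.11). The lowest ratios belonged to Rgs6 (-3.54), Arpp21 (-3.31), Lrfn5 (-3.24) and Opcml (-3.15), genes of maturing neurons.

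Dividing nuclei with Eomes had higher levels of proneural genes and lower levels of apical genes than those without. Of 4936 genes, 316 were higher in 8 of 8 libraries with Eomes (6.4%) and 249 were lower (5.04%). Neurog2, the proneural factor upstream of Eomes, stood at 854 ± 172 CPM with Eomes and 214 ± 65.8 CPM without (SD, n = 8 libraries each), a log2 ratio of 2.12. Neurog1, its close relative, had a ratio of 3.06, and Kif26b, an atypical kinesin, had the highest at 3.19. Insm1, Btg2 and Gadd45g, which accompany the switch to neurogenesis, were higher in 8 of 8 libraries as well (1.33, 1.31 and 1.76). Of 12 measured intermediate progenitor markers, 10 were higher in 8 of 8 (median 1.55). A marker counts as measured at 50 CPM in either kind, so it can enter through the nuclei with Eomes alone. Neurog1 stood at 73.1 against 9.88 CPM and Mfng at 123 against 31.0 CPM. Eomes itself chose the classes.

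Genes of the Notch pathway lay on both sides. The ligand Dll1 was higher with Eomes (128 ± 31.7 against 32.7 ± 16.1 CPM, log2 ratio 1.96), as was Mfng (2.12), the glycosyltransferase that modifies Notch receptors. The effectors Hes1 and Hes5 were lower. Hes1 had a log2 ratio of -2.15 (107 ± 52.3 against 454 ± 114 CPM) and Hes5 of -1.0 (167 against 334 CPM). The ligand Jag1 was lower (-0.67) in 8 of 8 libraries, and the receptor Notch1 was lower in 7 of 8 (-0.15). Over the list, 2 genes were higher and 5 lower in 8 of 8 libraries, of 12 measured.

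Apical genes were lower with Eomes, 12 of 16 in 8 of 8 libraries (median -0.99). Sox2 stood at 217 against 434 CPM and Slc1a3, the glutamate transporter of radial glia, at 151 against 425 CPM. Tnc, an extracellular matrix protein that is also among the markers of outer radial glia, had the lowest ratio (-2.22). Pax6 was lower in 7 of 8 libraries (643 against 895 CPM).

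Nuclei of both kinds had passed the same threshold on mitosis genes, so nothing is read from their like levels: none of 30 G2 and mitosis genes was higher or lower in 8 of 8 libraries (median ratio 0.08). Of 28 S phase genes 1 was higher (median 0.06), and Pcna stood at 224 against 193 CPM. Of 14 cyclins, CDKs and G1 inhibitors measured, 3 were higher and 1 lower in 8 of 8 libraries (median 0.08). Cdk6 was higher with Eomes in 8 of 8 libraries (390 against 271 CPM, 0.56) and Ccnd2 was lower in 8 of 8 (781 against 1003 CPM, -0.26). Ccnd1 was higher in 8 of 8 (0.44). Nuclei with Eomes were deeper, with library medians of 2022 to 3267 UMIs against 1523 to 2694, and their levels were compared again at 1 depth. Nuclei under 1000 UMIs were left out, unevenly between libraries (44 of 4552 nuclei in Csf1r-null MIA 1, 1476 of 5961 in Csf1r-null saline 2, and 195 to 1011 in the other 6). With the rest thinned to 1000 UMIs, 197 of 5159 genes were higher in 8 of 8 (3.82%) and 53 were lower (1.03%). The rule and Eomes were read again on the thinned counts, which left 14 to 51 dividing nuclei with Eomes per library. The lower side fell from 249 genes to 53, while the median log2 ratio over all genes moved from 0.048 to 0.221. The part of depth and of these small sums in that fall was not tested. Of the apical markers 10 of 16 were still lower in 8 of 8 (median -1.20), and of the Notch genes 4 of 13. Of 16 cyclins, CDKs and G1 inhibitors none was then higher or lower in 8 of 8.

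**Figure D2:**
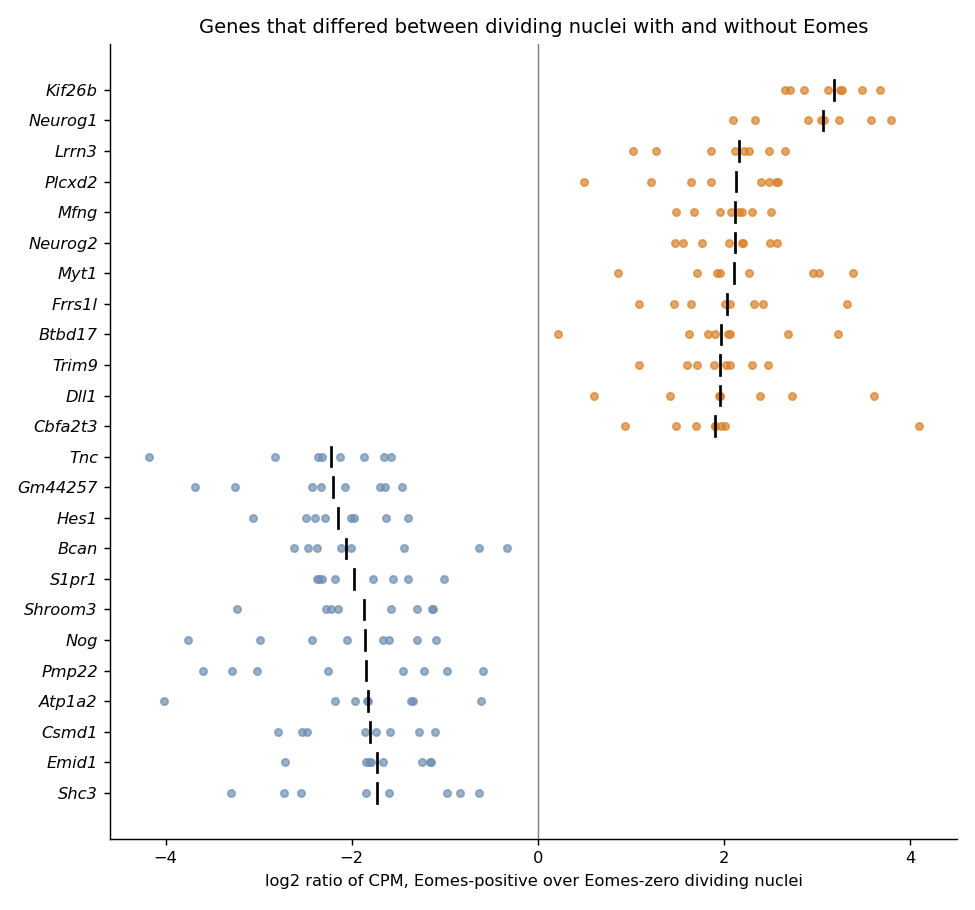
Log2 ratio of CPM between dividing nuclei with and without Eomes for the 12 genes with the highest and the 12 with the lowest median ratio among those on one side of 0 in all 8 libraries. Points are libraries and bars are medians. Kif26b and Neurog1 sit highest (3.19 and 3.06) and Tnc lowest (-2.22).

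Each kind was then set beside nuclei that shared its gate and did not pass the rule. Against 3634 other nuclei with Eomes, the dividing nuclei with Eomes were higher in 8 of 8 libraries for 785 of 4938 genes (15.9%) and lower for 433 (8.77%). The 29 G2 and mitosis genes at 50 CPM were higher (median log2 ratio 3.52), which the rule fixed. Apical genes were higher as well, 14 of 16 in 8 of 8 libraries but with a small median (0.68), and Sox2 was higher by 1.40. Lower in 8 of 8 libraries were Tbr1, a transcription factor of deep-layer neurons (44.3 against 99.4 CPM, -1.12), Dcx, a microtubule protein of migrating neurons (278 against 495 CPM, -0.78), Neurog2 (-0.41), Gadd45g (-0.47) and Cdkn1c (-1.40). Insm1 was higher (614 against 344 CPM, 0.83).

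Without Eomes, the 2457 dividing nuclei that passed the apical gate were set against 14350 other nuclei that passed it. The dividing nuclei were higher in 8 of 8 libraries for 2127 of 5160 genes (41.2%) and lower for 1185 (23.0%). The apical markers were higher here by a median of 2.36 (15 of 16 in 8 of 8) and projection neuron markers lower by -1.76 (14 of 15). The gate asks for few UMIs, and its 7 genes are themselves among the apical markers. The nuclei it admitted held more RNA of the neuronal genes named above than the full set of other nuclei, with Arpp21 at 751 against 541 CPM, Lrfn5 at 403 against 287 CPM and Opcml at 736 against 576 CPM, so they are no matched apical progenitors. Proteasome genes again stood near 0 (median 0.14).

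**Figure D3:**
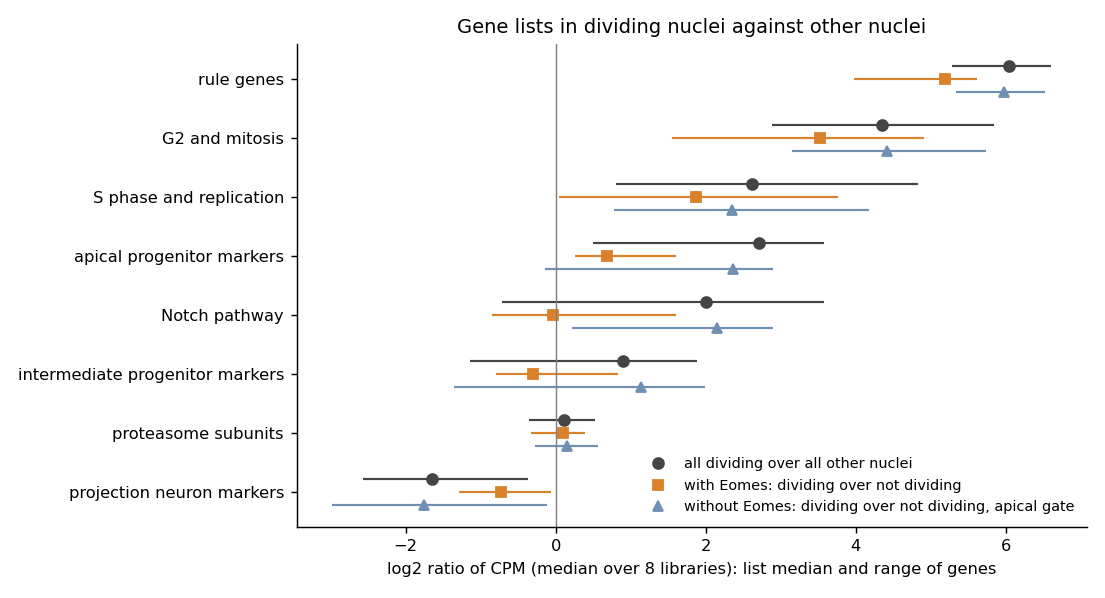
Median log2 ratio of CPM (symbols) and range over genes (lines) for 8 gene lists in 3 comparisons of dividing with other nuclei. G2 and mitosis genes stood high in all 3 (medians 4.35, 3.52 and 4.41), apical markers high in 2 and low in the comparison within Eomes nuclei (0.68).

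No difference in the share of dividing nuclei between treatments or genotypes passed its test. The share was 12.6% and 7.03% in wild type saline, 10.4% and 8.94% in wild type MIA, 6.37% and 5.96% in Csf1r-null saline, and 9.45% and 5.82% in Csf1r-null MIA. The ranges of MIA and saline overlapped, and so did those of the genotypes. MIA libraries averaged 8.66 ± 1.99% and saline libraries 8.0 ± 3.13% (SD, n = 4 each), a difference of 0.663 points (two-sided exact permutation test within genotype, p = 0.833). Csf1r-null libraries averaged 6.90 ± 1.71% and wild type libraries 9.76 ± 2.37%, a difference of -2.86 points (exact permutation test within treatment, p = 0.111, adjusted over 4 tests 0.444). The smallest p this design allows is 0.0556, here and for the share with Eomes below, so no conclusion is drawn from these p-values. With libraries paired by replicate number the genotype difference had the same sign in 4 of 4 pairs and the exact permutation p was 0.125, the smallest that pairing allows. With ventral nuclei taken only out of the dividing nuclei the MIA difference was 1.71 points and the genotype difference -1.81 points (exact permutation p = 0.222 and 0.111). With all nuclei past the ventral gate left out of both counts, an alternative chosen after seeing the data, they were 1.25 and -2.46 points (exact permutation p = 0.5 and 0.111). With nuclei under 1000 UMIs left out and the rest thinned to 1000 UMIs they were 0.0622 and -1.48 points (exact permutation p = 0.944 and 0.167).

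The share of dividing nuclei with Eomes was 14.3% and 15.6% in wild type saline, 23.6% and 18.1% in wild type MIA, 19.8% and 12.4% in Csf1r-null saline, and 20.5% and 12.47% in Csf1r-null MIA. Both wild type MIA libraries lay above both wild type saline libraries, and the Csf1r-null groups covered nearly the same range. Over both genotypes MIA averaged 18.7 ± 4.71% and saline 15.54 ± 3.16%, a difference of 3.12 points (two-sided exact permutation test, n = 4 each, p = 0.222, adjusted over 4 tests 0.444). With libraries paired by replicate number MIA was above saline in 4 of 4 pairs, by under 1 point in both Csf1r-null pairs, and the exact permutation p was 0.125, the smallest that pairing allows. Thinned to 1000 UMIs the difference in share was 1.87 points, and without ventral nuclei it was 1.67 points (exact permutation p = 0.333 and 0.611). Csf1r-null libraries differed from wild type by -1.62 points, and by -3.13 points without ventral nuclei (exact permutation p = 0.611 and 0.333). Without the 2 libraries that went against their labels this genotype difference was -0.259 points.

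Genes were tested on UMIs summed over the dividing nuclei of each library, with edgeR's quasi-likelihood test and Benjamini-Hochberg adjustment over all genes. A log2 change is given ± a standard error derived from its test statistic, which is not an SD over libraries. Averaged over genotypes, 0 of 10643 genes passed 0.05 for MIA against saline (0.0%), 489 had an unadjusted p under 0.05 (1.82% higher, 2.77% lower), and DESeq2 called 0. Without the 2 libraries that went against their labels 212 genes had an unadjusted p under 0.05 and 0 passed. In that fit wild type MIA and Csf1r-null saline are 1 library each, and in a fit without wild type saline 1 wild type saline is 1 library. A lone library is there assumed to vary like those of the groups with 2, which alone give the spread. Libraries with the same replicate number deviated together, and once that number entered the model as a block 5 genes passed (0.047%), with Rab36 higher (0.0094%) and Hist1h3e, Hist1h2ap, Shtn1 and Dlx1 lower (0.0376%).

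Rab36, a small GTPase of the Rab family that directs membrane traffic, was higher after MIA in both genotypes. It stood at 5.2 and 4.65 CPM in wild type saline and at 19.1 and 26.9 CPM in wild type MIA. In Csf1r-null nuclei it stood at 8.65 and 4.91 CPM after saline and at 24.2 and 20.9 CPM after MIA. Its counts were 13 to 35 UMIs in the 4 MIA libraries and 3 to 9 in the 4 saline libraries. Rab36 had the smallest p of the averaged comparison, so this gap is no evidence apart from that choice. The share of all genes with such a gap is not given here. The averaged log2 change was 1.88 ± 0.32 (edgeR, adjusted p = 0.844 without and 0.0159 with the block). It lay between 1.74 and 2.11 when any 1 library was left out and was 1.62 without the 2 libraries that went against their labels. In all other nuclei Rab36 stood between 6.01 and 8.66 CPM in every library, with no gap between MIA and saline.

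The lower side held the histone genes Hist1h3e and Hist1h2ap beside Shtn1 and Dlx1. Hist1h3e, a histone H3 gene of the large cluster, stood at 50.8 and 73.3 CPM in wild type saline, 15.8 and 25 in wild type MIA, 19.2 and 39.3 in Csf1r-null saline, and 11.7 and 14.5 in Csf1r-null MIA. Within each genotype both MIA libraries were below both saline libraries. Its averaged log2 change was -1.42 ± 0.31 (edgeR, adjusted p = 0.973 without and 0.00948 with the block). Hist1h2ap, a histone H2A gene, depended mostly on the replicate: it ranged from 144 to 536 CPM in replicate 1 and from 529.9 to 3269 CPM in replicate 2, with wild type MIA 2 at the low end. Its averaged log2 change was -1.36 ± 0.87 (edgeR, adjusted p = 0.973 without and 0.00501 with the block), and it lay between -2.97 and -0.00382 when any 1 library was left out.

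Dlx1 and Shtn1 were highest in wild type saline 1, the library with the ventral nuclei. Dlx1, the transcription factor of ventral progenitors, stood at 513 CPM in that library and between 0 and 29.4 CPM in the other 7. Its log2 change in wild type nuclei was -5.79 ± 1.41 and became 0.27 without that library. Shtn1, which acts in axon outgrowth, stood at 210 CPM there and at 58.1 CPM in wild type saline 2, and its averaged change went from -1.05 to -0.51 without the ventral nuclei, so that part of it was left.

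In wild type dividing nuclei alone, 0 of 10643 genes passed 0.05 for MIA against saline (0.0%, edgeR), 791 had an unadjusted p under 0.05 (288 or 2.71% higher, 503 or 4.73% lower) and DESeq2 called 19, all lower. With the replicate block 116 genes passed (1.09%), 21 higher and 95 lower, and 175 passed with the block and without the ventral nuclei. Lower genes included Fabp7, the fatty acid-binding protein of radial glia, Ube2c, the tubulin gene Tuba1b and the glycolytic enzyme Gapdh. Without the block the adjusted p was 0.624 for each of these genes.

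Fabp7 stood at 1414 and 1607 CPM in wild type saline and at 898 and 667 CPM in wild type MIA. The Csf1r-null libraries lay at 853 and 790 CPM after saline and 768 and 828 CPM after MIA, so that wild type saline stood above the other 6 libraries. The log2 change was -1.01 ± 0.20 in wild type (adjusted p with the block 0.00288) and -0.06 ± 0.20 in Csf1r-null nuclei. Ube2c stood at 273 and 309 CPM in wild type saline and between 122 and 162 CPM in the other 6 libraries. Its wild type change was -1.06 ± 0.21 (adjusted p with the block 0.00211). Tuba1b stood at 1108 and 1144 CPM in wild type saline and between 426 and 658 CPM elsewhere. By label, the difference for these 3 genes rested on wild type saline being high. Among the other libraries, the Csf1r-null saline library with 790 CPM of Fabp7 went against its label, with 10 Csf1r UMIs over all nuclei. So did the wild type MIA library with 667 CPM of Fabp7, with 1 such UMI. Values of these genes without those libraries are not given here.

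Of 34 G2 and mitosis genes 31 had a log2 change below 0 in wild type MIA (91.2%, against 46.3% of all genes), and 11 were lower at an unadjusted p under 0.05 (32.4%, against 4.73% of all genes). Without the 2 libraries that went against their labels 6 were, against 2.19% of all genes, with wild type MIA then 1 library. With the block 3 passed, Ube2c, Ccnb2 (a mitotic cyclin, -1.15 ± 0.30) and Tpx2 (a spindle assembly factor, -0.74 ± 0.20). The median of the list was -0.19 beside 0.03 over all genes. It was -0.30 without those 2 libraries and -0.31 without wild type saline 1. The 6 genes of the rule had a median of -0.04, and of -0.16 without those 2 libraries. The nuclei were chosen on these genes, so nothing is read from their level. Of 34 S phase genes 4 were lower and 1 higher at that p, with none past the block.

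Proteasome subunits, the protein-degrading particle, had 17 of 31 genes lower at an unadjusted p under 0.05 and none higher (54.8%, against 4.73% of all genes), with a median log2 change of -0.53, and 30 of 31 below 0. Without the 2 libraries that went against their labels the count was 10 of 31, against 2.19% of all genes, with 1 library of wild type MIA left. With the block 7 passed: Psmb1, Psmb3, Psmb6, Psmb7, Psma5, Psma6 and Psmd6. Psmb6 stood at 250 and 291 CPM in wild type saline and at 174 and 155 CPM in wild type MIA (-0.77 ± 0.20, adjusted p with the block 0.0265). Of the 11 genes that the study named for progenitors, 10 were lower at an unadjusted p under 0.05 (median -0.75), and 7 without those 2 libraries. They were chosen on these samples. The paper also reported lower proteasome subunits and hemoglobin genes after MIA in wild type progenitors of the same samples. The counts of the 11 genes, of the proteasome list and of the red cell genes below are therefore not independent evidence.

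RNA outside nuclei was measured in the replicate 1 libraries, whose tables hold empty droplets (at most 100 UMIs). Psmb6 stood at 403 to 452 CPM in droplets and at 153 to 250 CPM in dividing nuclei, and Gapdh at 1402 to 1706 against 679 to 1290 CPM. Fabp7 had the opposite order, with 566 to 909 CPM in droplets, 768 to 1414 CPM in dividing nuclei and 160 to 523 CPM in all nuclei. Ube2c was likewise above its droplet level in dividing nuclei (122 to 273 against 64.2 to 119 CPM), and Tuba1b overlapped (549 to 1108 against 566 to 675 CPM). The droplets of wild type saline 1 themselves held the most Fabp7 (909 against 566 to 703 CPM) and Ube2c (119 against 64.2 to 74.5 CPM). They also held the most Tuba1b (675 against 566 to 625 CPM) and Hbb-bs (590 against 264 to 494 CPM). Psmb6 (421 against 403 to 452 CPM) and Gapdh (1402 against 1497 to 1706 CPM) were not highest there. Hbb-bs, a globin gene of red cells, stood at 257 and 327 CPM in dividing nuclei of wild type saline, 143 and 169 in wild type MIA, and 63.9 to 127 in the Csf1r-null libraries. Of 5 red cell genes tested 4 were lower in wild type MIA at an unadjusted p under 0.05, against 4.73% of all genes (median -0.97). The part of free RNA in these changes was not tested. Rab36 stood at 3.92 and 3.47 CPM in empty droplets of the MIA libraries and at 2.55 and 2.15 CPM in those of saline. In all nuclei, dividing ones included, it stood at 8.61 and 8.04 against 6.20 and 6.20 CPM.

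Of 16 apical markers 3 were lower in wild type MIA at an unadjusted p under 0.05 (18.8%, against 4.73% of all genes, median 0.08), and 1 was without the 2 libraries that went against their labels (median -0.07). The median turned to -0.11, with 4 of 16 lower, both without the ventral nuclei and without wild type saline 1. Of 14 intermediate progenitor markers, among them Eomes, 3 were higher (21.4%, against 2.71% of all genes, median 0.11). That count was 1 without ventral nuclei and 0 without wild type saline 1. Of 19 Notch genes 2 were higher and 2 lower. The lower pair, the ligands Dll3 and Jag1, was high in wild type saline 1 (79.7 and 122 CPM, against 11.7 to 22.1 and 17.1 to 40.2 CPM elsewhere). Their wild type log2 changes were -1.74 ± 0.47 and -1.42 ± 0.48 and shrank to -0.57 and -0.29 without that library. None of 6 interferon response genes and none of 11 p53 target genes reached an unadjusted p of 0.05. Of 5 vascular markers 2 were higher at that p (median 2.00). Without the 2 libraries that went against their labels, of which wild type MIA 2 is one, none of 4 was higher (median 0.95). The summed level of the vascular list was 242 CPM in wild type MIA 2 and 74.1 CPM in wild type MIA 1, against 61.2 and 36 CPM in wild type saline. Igfbp7, one of them, stood at 21.8 and 40.3 CPM in wild type MIA and at 9.82 and 3.49 CPM in wild type saline (2.00 ± 0.59, edgeR, adjusted p with the block 0.0436).

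**Figure D4:**
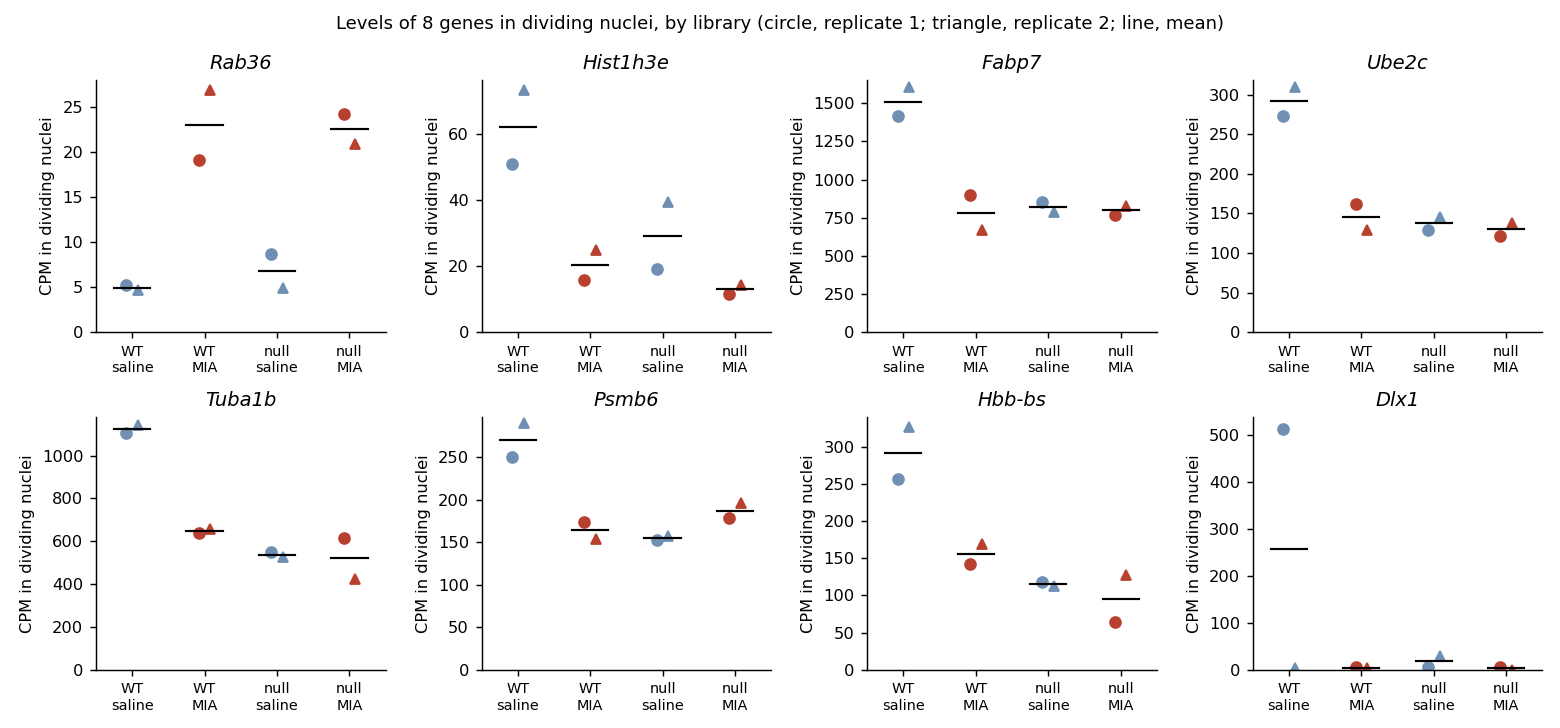
CPM of 8 genes in the dividing nuclei of each library (WT, wild type; null, Csf1r-null). Circles are replicate 1, triangles replicate 2 and lines group means. Rab36 was higher in the 4 MIA libraries, Fabp7, Ube2c, Tuba1b, Psmb6 and Hbb-bs were highest in the 2 wild type saline libraries, and Dlx1 was high in 1 library.

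In Csf1r-null dividing nuclei MIA called 0 of 10643 genes (0.0%, edgeR), with 183 at an unadjusted p under 0.05 (0.723% of all genes higher and 0.996% lower) and 0 by DESeq2. The block called 1 (0.0094%), Arpp21, a phosphoprotein of neurons, with a log2 change of -1.36 in that fit (adjusted p = 0.0499) and of -1.33 ± 0.43 without the block. Proteasome subunits had a median of -0.08, with 1 of 31 higher at an unadjusted p under 0.05 and none lower. G2 and mitosis genes had a median of -0.15, with 25 of 34 below 0 (73.5%, against 51.0% of all genes) and none of 34 at that p. Without the 2 libraries that went against their labels their median was 0.03, with Csf1r-null saline then 1 library. The difference between genotypes for this list is not given here. Of 34 S phase genes 3 were higher, with Mcm2 of the replicative helicase at 31.7 and 31.1 CPM after saline and 73.2 and 53 CPM after MIA (1.01 ± 0.26, unadjusted p = 0.00253, adjusted p = 1.00). Rab36 changed by 1.64 ± 0.46 (unadjusted p = 0.00409, adjusted p = 1.00).

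The difference between genotypes was tested directly. The interaction called 0 of 10643 genes in edgeR (0.0%), with 329 at an unadjusted p under 0.05 (1.51% higher, 1.58% lower), 0 by DESeq2 and 0 with the block. The proteasome list had a median difference of 0.50 with 3 of 31 genes higher at an unadjusted p under 0.05, against 1.51% of all genes. The count was 10 without wild type saline 1 (2.90% of all genes) and 1 without the 2 libraries that went against their labels (1.73%), in fits that hold groups of 1 library. Fabp7 had a difference of 0.96 ± 0.28 and Ube2c of 0.95 ± 0.31 (unadjusted p = 0.00568 and 0.00935, adjusted p = 1.00 for both). Rab36 had a difference of -0.47 ± 0.66 (unadjusted p = 0.499). With no filter on low counts 14 genes passed, and 3 passed with the block and without ventral nuclei.

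**Figure D5:**
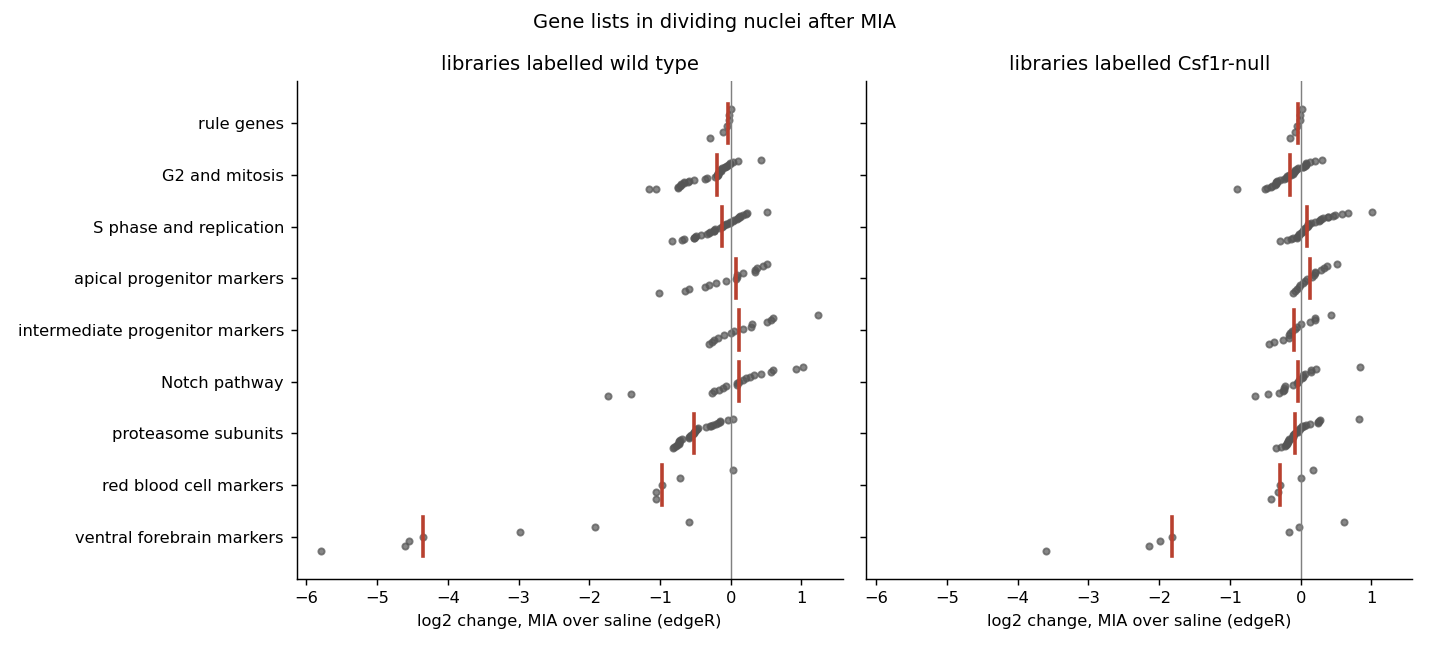
Log2 change (MIA over saline, edgeR) of each gene of 9 lists in dividing nuclei, in libraries labelled wild type (left) and Csf1r-null (right). Points are genes and bars are list medians. Proteasome subunits had medians of -0.53 and -0.08, and the rule genes lay near 0 in both.

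Csf1r-null and wild type nuclei were compared within each treatment, and these comparisons share libraries with those of MIA. After saline 0 of 10643 genes passed (0.0%, edgeR), 822 had an unadjusted p under 0.05 (2.88% higher, 4.85% lower), DESeq2 called 13, and the block called 82 (0.77%), 19 higher and 63 lower. Lower genes repeated the high wild type saline libraries: Tuba1b (-1.10 ± 0.19), Gapdh (-1.04 ± 0.20), Ube2c (-1.11 ± 0.22) and Fabp7 (-0.91 ± 0.20), with adjusted p of 0.00171, 0.0028, 0.0028 and 0.0124 under the block. Of the proteasome list 16 of 31 were lower at an unadjusted p under 0.05 (median -0.47, against 4.85% of all genes), 10 without the 2 libraries that went against their labels (3.09% of all genes, Csf1r-null saline then 1 library), and 4 of 5 red cell genes were lower.

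After MIA 0 of 10643 genes differed between genotypes (0.0%, edgeR), 123 had an unadjusted p under 0.05 (0.432% higher, 0.723% lower), and DESeq2 called 0. The block called 2 (0.0188%), the higher Gm10076 and the lower Igfbp7 (0.0094% each), a vascular marker (-3.54 ± 0.75, adjusted p with the block 0.0384). Proteasome subunits had a median of -0.06 with none of 31 at an unadjusted p under 0.05, and G2 and mitosis genes a median of -0.05 with none of 34. Of 5 red cell genes 2 were lower at that p (median -0.72), and none was without the 2 libraries that went against their labels (median -0.47). Of 5 vascular markers 2 were lower (median -2.56), and 1 of 4 was without those libraries (median -0.61).

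The kinds with and without Eomes were tested apart. With Eomes 0 of 6428 genes passed for MIA averaged over genotypes (0.0%, edgeR), with 292 at an unadjusted p under 0.05, 0 by DESeq2 and 1 with the block (Hist1h2ap). Without Eomes 0 of 10147 passed (0.0%), with 454 at an unadjusted p under 0.05, 0 by DESeq2 and 7 with the block, Rab36 among them. Rab36 stood at 21.8, 31.2, 25 and 23 CPM in the 4 MIA libraries without Eomes and at 4.91, 5.69, 7.76 and 3.88 CPM in the 4 saline libraries (2.09 ± 0.36, adjusted p with the block 0.0198). With Eomes it was too low to be tested in that kind alone. The difference of the MIA response between the kinds called 0 of 8929 genes (0.0%, edgeR), with 393 at an unadjusted p under 0.05, and 0 by DESeq2 and with the block.

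The MIA response of dividing nuclei was last compared with that of all other nuclei of the same libraries. Here 7 of 13497 genes passed (0.0519%, edgeR, adjusted p = 0.0314 for each), 19 with the block and 0 by DESeq2. Rab36 rose more in dividing nuclei, by a log2 difference of 1.82 ± 0.35. Its adjusted p was 0.0188 with the block, 0.274 by DESeq2 and between 0.0226 and 0.305 when 1 library was left out, with 1 of those 8 fits past 0.05. Over all alternatives it ran from 0.000312, with no filter on low counts, to 0.305. Arpp21 (-1.03 ± 0.18) and Ralyl (-1.22 ± 0.23), genes of neurons, moved lower. Ralyl stood at 25.4, 23.3, 26.9 and 16.4 CPM in the saline libraries and at 10.9, 15.4, 10.9 and 8.04 CPM in the MIA libraries. Dlx1, Dlx2, Sp9 and Ebf1 made up the rest. The first 3 had -3.47, -3.14 and -2.24. With the ventral dividing nuclei left out Dlx1 had -1.12, Dlx2 -1.69 and Sp9 -0.25, but the ventral gate itself reads Dlx1 and Dlx2, so that leaving those nuclei out lowers both genes by construction. Ebf1 had a difference of 2.93, and of 2.20 with the block, where it no longer passed (edgeR, adjusted p = 0.0876). It was 0.73 without wild type saline 1, which had 172 CPM in dividing and 791 CPM in other nuclei.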

How the data were processed

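Nuclei from flash-frozen cortex were profiled by droplet 3′ RNA-seq. The authors aligned the reads and counted UMIs per gene and barcode with Cell Ranger, and deposited raw counts, not normalized. The file headers of replicate 1 name version 3.1.0 and those of replicate 2 version 6.0.1, so the replicate number also stands for the software. The tables shared 30406 genes. Libraries of sorted microglia were not used here.

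UMIs were summed per library over the dividing nuclei (611435 to 1835453 per library) and tested in R 4.3.3 with edgeR 4.0.16 (TMM, filterByExpr, quasi-likelihood test, Benjamini-Hochberg adjustment, threshold 0.05) and, as an alternative, DESeq2 1.42.0. Scripts ran in Python 3.11.15 (numpy 2.4.6, pandas 2.3.3, scipy 1.17.1, scanpy 1.11.5) and were tested on simulated data. Differences in shares were tested by exact permutation of libraries, two-sided. Exact intervals are Clopper-Pearson at 95% and cover counting error only. Doublets were kept, and an alternative removed those called by Scrublet at a rate of 0.8% per 1000 nuclei.

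Deviations from group means of libraries with the same replicate number correlated in all 6 pairs of groups (0.342 to 0.413), so the number was taken to pair libraries, and a fit with it as a block is given where it changed a call. The genes named were those of the rule, the 10 of smallest p per comparison, the 12 highest and lowest in each description, and the 4 most abundant of each list. Genes called with the block, and other members of a described list, were named after their values were seen. The dividing nuclei and gene lists were chosen with earlier results of these data known. Results for some items withheld for evaluation are not reported here.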

Additional observations from a re-analysis of the deposited data

Results flagged for a closer look

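Library wild type saline 1 had 12.6% dividing nuclei, far from the other 3 saline libraries (5.96 to 7.03%). Csf1r-null MIA 1 had 9.45%, far from the other 3 Csf1r-null libraries (5.82 to 6.37%), and 90% of its dividing nuclei passed the apical gate, against 77.5 to 79.5% in those libraries. In wild type saline 1 the ventral gate was passed by 33.7% of the dividing nuclei, against 0.306 to 1.69% in the other saline libraries and 0.306 to 1.10% in the other wild type libraries. Chance alone would mark about 1 in 20 groups in this way.

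For 7 genes the log2 response to MIA differed between dividing and all other nuclei by edgeR's test of the difference. The difference (dividing minus other) was 1.82 for Rab36 and 2.93 for Ebf1, and -1.03 for Arpp21, -1.22 for Ralyl, -2.24 for Sp9, -3.14 for Dlx2 and -3.47 for Dlx1. Sp9, Dlx1 and Dlx2 were high in wild type saline 1. With ventral nuclei left out of the dividing nuclei, and kept among the other nuclei, the difference was 1.71 for Rab36, 2.72 for Ebf1, -1.11 for Arpp21 and -1.23 for Ralyl. For Ebf1 it was 2.20 with the replicate block (edgeR, adjusted p = 0.0876) and 0.73 without wild type saline 1, and it passed in neither fit.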

How the results depend on the processing

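Counts of genes past 0.05 depended on the processing, and the causes were not tested. In the order wild type MIA, Csf1r-null MIA, difference between genotypes, Csf1r-null against wild type after saline, the same after MIA, MIA averaged, averaged with Eomes, averaged without Eomes, and dividing against other nuclei, they were 81, 3, 14, 48, 13, 28, 1, 33 and 64 with no filter on low counts. With the replicate block they were 116, 1, 0, 82, 2, 5, 1, 7 and 19. With the replicate block and without ventral nuclei, an alternative chosen after seeing the data, they were 175, 1, 3, 153, 2, 9, 1, 16 and 11. DESeq2 gave 19 in wild type MIA, 13 between genotypes after saline and 0 for dividing against other nuclei. That last comparison gave 1 with at least 5 UMIs of the rule, 11 with doublets removed, 3 without ventral nuclei, 14 without the 2 libraries that went against their labels, and 1 without wild type saline 1 and ventral nuclei (also chosen after seeing the data). Without any 1 library the counts ran from 0 to 18, 0 to 0, 0 to 0, 0 to 16, 0 to 0, 0 to 6, 0 to 1, 0 to 8 and 0 to 20, and from 0 to 0 for MIA between the kinds with and without Eomes. The highest counts came without wild type saline 2 in wild type MIA (18), between genotypes after saline (16), MIA averaged (6), without Eomes (8) and dividing against other nuclei (20).

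The MIA difference in the share of dividing nuclei ran from -0.0184 to 2.21 points without 1 library and was -0.112 without the 2 libraries that went against their labels. The genotype difference ran from -3.77 to -1.90 points. The share with Eomes differed by 1.47 to 5.19 points for MIA and by -3.01 to 0.280 points for genotype, and the sign turned without wild type MIA 1. Thinning to 1000 UMIs left 197 genes higher with Eomes (316 before) and 53 lower (249 before). The nuclei were there chosen again on the thinned counts. Dlx1 in wild type ran from -6.73 to 0.27 without 1 library, reversed without wild type saline 1. Of 537 values of named genes under alternatives, 536 kept their direction, while 60 were classed as weaker and 73 as stronger. Named genes include those of smallest p in the main fit, and the alternatives reuse most of the same data. A kept direction was therefore likely from the start, and no stability is read from that count. Depth limits genes such as Rab36, which rest on 3 to 35 UMIs per library.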
